A study of Homo sapiens with 16 samples.

Results

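Immunoglobulin variable (V) segments were examined by RNA-seq in 4 established B-cell lymphoma cell lines of human origin (16 libraries), as the genes whose symbols start with IGHV, IGKV or IGLV and that held at least 10 counts in at least 1 library. Of 330 such symbols in the files, 139 met this rule, out of 62714 genes in all. They comprise 45 heavy-chain segments (IGHV), 55 kappa segments (IGKV) and 39 lambda segments (IGLV). Each line carried lentiviral Cas9 with a pool of 4 guides against either CREBBP, a histone acetyltransferase gene labelled CREBBP -/- after targeting, or the AAVS integration site as the control, labelled AAVS -/-, and was kept as a pool of cells and not as clones. Each pool gave 1 library at baseline and 1 in the presence of the cytokine IL4 (10 ng/ml), both listed with 4 h of culture. The 4 groups, named by target and treatment (for example AAVS IL4), thus held 4 libraries each, 1 per line. SU-DHL4 is called line 1 and DOHH2 line 4. The labels contradict each other on lines 2 and 3 (OCI-LY7 and SU-DHL10), which are called by number here.

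A B cell builds its antigen receptor by joining 1 of many V segments to a diversity and joining segment (heavy chain) or to a joining segment alone (kappa or lambda light chain). The joined exon is spliced to a constant exon, and the promoter in front of the chosen V segment drives transcription. All cells of a clone, a lymphoma line included, descend from 1 such cell and share the same joined segments, whereas a mixed B-cell population uses many. The number of V segments detected in RNA and the share of the commonest therefore serve as measures of clonality. In germinal centre B cells, somatic hypermutation changes the V exon away from the genome sequence to which reads are aligned.

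By GENCODE, 112 of the 139 segments are annotated as V genes and 27 as V pseudogenes, and 13 are orphons, copies outside the 3 loci. The loci lie on chromosome 14 (heavy), chromosome 2 (kappa) and chromosome 22 (lambda). IGKV7-3, IGLV4-3, IGLVI-42, IGKV2D-23, IGKV2OR2-7D and IGLVIVOR22-1 stood just inside the rule, with 10 counts in their highest library, and IGLV11-55, IGHV3-20 and IGLV3-6 just outside it, with 9. Of the 330 symbols, 117 held 0 counts in all 16 libraries.

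The segments share signals for recombination and transcription, shown here for some of those that led a library or a locus. The recombination signal at the 3′ end of a V segment consists of a heptamer and a nonamer around a spacer, which is 23 bases long in heavy and lambda segments and 12 in kappa segments. The stretches below are from GRCh38 and read 5′ to 3′ on the coding strand, with the heptamer and the nonamer position in capitals.
IGLV1-40, chr22:22410283-22410321 (+ strand): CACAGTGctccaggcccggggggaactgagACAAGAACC
IGLV2-23, chr22:22698422-22698460 (+ strand): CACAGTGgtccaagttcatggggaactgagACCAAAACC
IGHV1-69D, chr14:106762053-106762091 (- strand): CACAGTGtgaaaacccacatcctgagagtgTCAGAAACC
IGHV7-4-1, chr14:106025106-106025144 (- strand): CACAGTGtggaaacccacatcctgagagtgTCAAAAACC
IGKV1-33, chr2:89267971-89267998 (- strand): CACAGTGtaacaagtcataACATAAATC
IGKV2-29, chr2:89234155-89234182 (- strand): CACAGTGgtacagaccaatACAGAAACC
The heptamer CACAGTG was searched on the coding strand in the last 10 bases of each annotated segment and the 60 bases past it. It was found for 102 of the 126 members at the 3 loci (81.0%), for 159 of all 275 annotated segments there (57.8%), and beside 1.74% of 7832 other genes of chromosomes 2, 14 and 22 in windows of the same length. The pseudogene IGHV5-78 had no match in its window. In IGKV2-29 the heptamer started 9 bases before the annotated end of the segment.

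The octamer of V promoters, the site bound by the factors OCT1 and OCT2, is ATGCAAAT in heavy-chain promoters and its reverse complement ATTTGCAT in light-chain promoters. The windows below lie upstream of the annotated starts, with the octamer in capitals.
IGLV1-40, chr22:22409692-22409721 (+ strand): ctgggggtctgATTTGCATggatggaccct
IGHV1-69D, chr14:106762627-106762656 (- strand): gcctcatgcatATGCAAATaacctgaggtc
IGHV7-4-1, chr14:106025666-106025695 (- strand): cactcatgaatATGCAAATaactgaggtaa
IGKV1-33, chr2:89268552-89268581 (- strand): atcccctgctgATTTGCATgttcgcagagc
IGKV2-29, chr2:89235000-89235029 (- strand): cccaccaggtgATTTGCATattgtccccta
An octamer in either orientation, searched in the 250 bases before the start, was found for 87 of the 126 members at the 3 loci (69.0%), for 135 of all 275 annotated segments (49.1%), and for 1.77% of the 7832 other genes. In heavy-chain segments 59 of 60 matches read ATGCAAAT, and in kappa and lambda segments all 75 matches (40 and 35) read ATTTGCAT. Among annotated V genes 73.8% held an octamer, and among annotated pseudogenes 26.9%. IGLV2-23 and IGKV4-1 had no match.

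The libraries held 19649735 to 61981976 counts, with a median of 44724334, and 2 of the 4 AAVS IL4 libraries (lines 1 and 3, 25640336 and 19649735 counts) were the shallowest. CPM is a count divided by this total and multiplied by 1000000, so that 1 CPM stands for between 20 and 62 counts. All 7 B-lineage marker genes examined were at 1 CPM or more in every library, and 6 or 7 of 7 germinal centre markers were. CREBBP itself was at 187 to 278 CPM in CREBBP baseline libraries and 205 to 360 CPM in AAVS baseline libraries, ranges that overlap. With IL4 it was at 214, 69.9, 245 and 218 CPM in CREBBP pools of lines 1 to 4 and at 315, 190, 315 and 379 CPM in AAVS pools, lower in CREBBP pools in 4 of 4 lines while the ranges overlapped. A gene-level count does not show the state of the edited site.

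**Figure D1:**
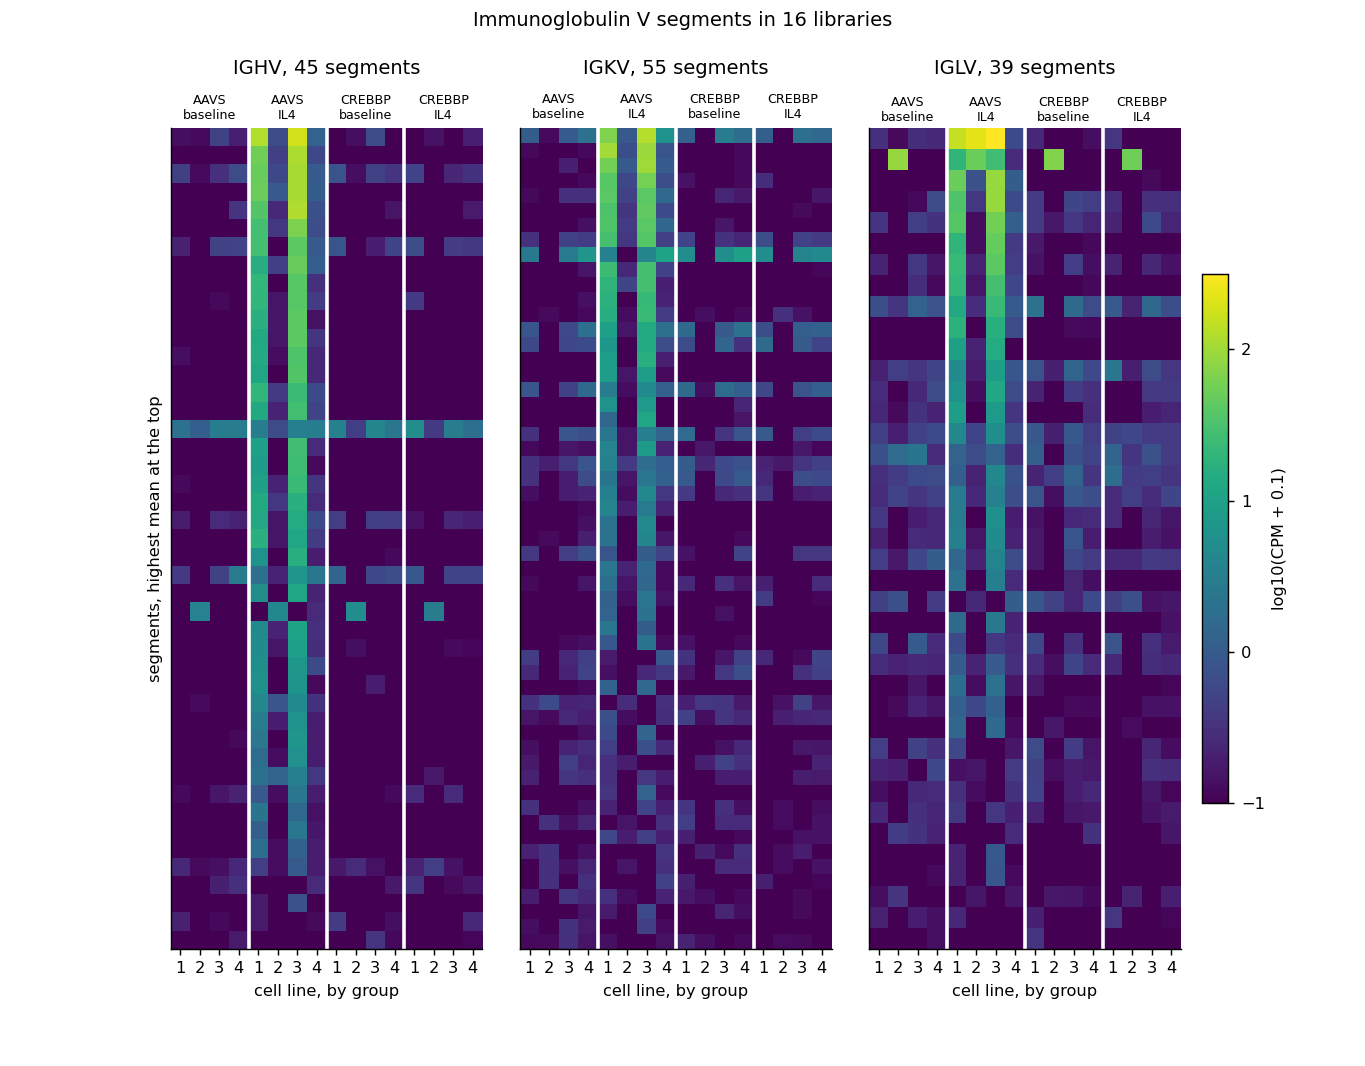
Level of each of the 139 V segments in each of the 16 libraries, as log10(CPM + 0.1), with 1 row per segment and 1 column per library in 3 panels for IGHV, IGKV and IGLV. Columns are grouped by condition and numbered by cell line, and rows are sorted by their mean level; the AAVS IL4 columns of lines 1 and 3 are high in most rows.

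In lines 1, 3 and 4, V transcripts were scarce outside the AAVS IL4 group. Their 9 libraries held 16.6 to 33.4 CPM of V counts in all, and 2 to 9 segments reached 1 CPM. The leading segment was IGKV2-29 in 7 of these libraries and IGHV5-78 in the others, both annotated as pseudogenes. Pseudogenes held 38.3% to 51.3% of V counts in these 9 libraries, against 0.664% and 0.440% in the AAVS IL4 libraries of lines 1 and 3.

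IGKV2-29 (ENSG00000253998, chr2:89234174-89234912, kappa locus) was at 2.51, 5.04 and 5.17 CPM in AAVS baseline, CREBBP baseline and CREBBP IL4 of line 1. It was at 2.73, 5.46 and 3.64 CPM in the same order in line 3, and at 6.51, 9.85 and 4.50 CPM in line 4. It held 0 counts in all 4 libraries of line 2. IGHV5-78 (ENSG00000211978, chr14:106851123-106851417) ranged from 1.81 to 5.19 CPM in the 9 libraries of lines 1, 3 and 4, and from 0.30 to 1.005 CPM in the 3 of line 2. In AAVS IL4, lines 1, 3 and 4 had 3.32, 3.77 and 10.6 CPM of IGKV2-29 and 2.96, 3.10 and 2.98 CPM of IGHV5-78. For both, the AAVS IL4 libraries of lines 1 and 3 lay within the range of the 9 others.

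In line 2 a single lambda segment held nearly all V counts. IGLV2-23 (ENSG00000211660, chr22:22697789-22698407, a functional lambda segment) was at 89.1 CPM in AAVS baseline, 67.7 CPM in CREBBP baseline and 53.0 CPM in CREBBP IL4. It held 89.3% of 4068 V counts in AAVS baseline (95% Wilson interval 88.3% to 90.2%), 89.7% of 2204 in CREBBP baseline (88.4% to 90.9%) and 88.6% of 2409 in CREBBP IL4 (87.3% to 89.8%). These intervals cover counting error only and overlap. In the same order IGHV7-4-1 (ENSG00000282122, chr14:106025145-106025630), a heavy-chain segment, was at 3.51, 5.03 and 2.98 CPM and held 76.1%, 89.1% and 79.5% of IGHV counts. Both segments held 0 counts in the 9 libraries of lines 1, 3 and 4 outside AAVS IL4. Kappa segments were all under 1 CPM in line 2, and at most 1.54 CPM of IGKV counts were found in a library outside AAVS IL4.

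The constant genes differed between the lines in the same way. IGKC, the kappa constant gene, was at 0.60 to 0.92 CPM in the 3 line 2 libraries outside AAVS IL4 and at 454 to 1058 CPM in the 9 of lines 1, 3 and 4. The lambda constant genes IGLC1, IGLC2, IGLC3 and IGLC7 together were at 166 to 310 CPM in line 2 and at 3.16 to 29.5 CPM in lines 1, 3 and 4. In line 2 there were 0.302, 0.317 and 0.335 IGLV counts per lambda constant count in AAVS baseline, CREBBP baseline and CREBBP IL4. In lines 1, 3 and 4, by contrast, there were only 0.0108 to 0.0405 IGKV counts per IGKC count, and in all 4 lines only 0.00153 to 0.00633 IGHV counts per heavy-chain constant count.

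The AAVS IL4 libraries of lines 1 and 3 held a broad repertoire. V counts came to 1655 CPM in line 1, against 16.6 CPM in AAVS baseline, and to 2893 CPM in line 3, against 22.97 CPM, and 98 and 101 segments reached 1 CPM, of which 97 were the same (98.98% of those in line 1 and 96.0% of those in line 3). Of the 98 and 101 segments, 95 and 98 are annotated as V genes. AAVS IL4 had 297 CPM in line 2, where 4 segments reached 1 CPM, and 65.2 CPM in line 4, where 14 did. Over the 4 libraries the number of segments at 1 CPM was 54.3 ± 52.4 (SD, n = 4) in AAVS IL4, 4.0 ± 1.63 in AAVS baseline, 6.0 ± 3.16 in CREBBP baseline and 4.50 ± 2.08 in CREBBP IL4. In all, 103 segments reached 1 CPM in some AAVS IL4 library, 14 in some other library and 36 in none, and 31 members held 0 counts in all 12 libraries outside AAVS IL4. Fewer cells that use a segment and less RNA per cell cannot be told apart in such bulk libraries.

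**Figure D2:**
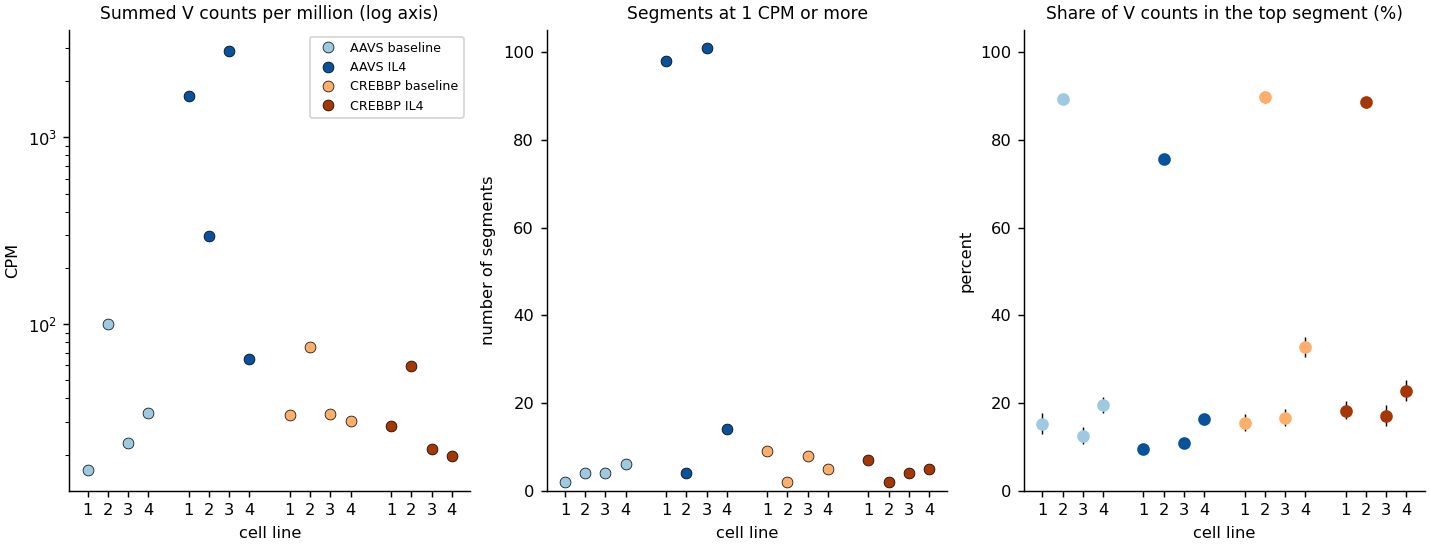
Summed V level in CPM on a log axis (left), number of segments at 1 CPM or more (middle) and share of V counts in the top segment in percent (right) for each library, by group and cell line. Points are single libraries and bars in the right panel are 95% Wilson intervals; in AAVS IL4, lines 1 and 3 have 98 and 101 segments at 1 CPM or more, and line 2 has a top share of over 75% in every group.

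The share of the top segment was 9.55% of 42441 V counts in AAVS IL4 of line 1 (Wilson interval 9.27% to 9.83%), 75.6% of 10086 in line 2 (74.7% to 76.4%), 10.97% of 56854 in line 3 (10.7% to 11.2%) and 16.3% of 3112 in line 4 (15.0% to 17.6%). In AAVS baseline it was 15.2% of 930 counts in line 1, 12.5% of 1119 in line 3 and 19.5% of 1752 in line 4. In CREBBP baseline it was 15.5%, 16.6% and 32.7% in lines 1, 3 and 4, and in CREBBP IL4 18.2%, 17.0% and 22.8%. In lines 1, 3 and 4 the top share was thus lowest in the AAVS IL4 library of each line. In line 3 its interval overlapped with that of AAVS baseline (10.7% to 14.6%). The effective number of segments, the inverse of the summed squared shares, was 30.8 and 29.5 in AAVS IL4 of lines 1 and 3, 21.9 in line 4 and 1.66 in line 2. It was 7.83 to 19.2 in the 9 other libraries of lines 1, 3 and 4, and 1.23 to 1.27 in those of line 2. Those 9 libraries held only 921 to 1752 V counts each, with 38.3% to 51.3% from pseudogenes. Their top share and effective number therefore do not show how clonal these lines are. The same segment led each of the 16 libraries when counts were divided by exon length. Without pseudogenes another segment led in those 9 libraries and in AAVS IL4 of line 4, whose leaders were pseudogenes. The new leaders held 10.2% to 15.9% of the V counts that remained.

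**Figure D3:**
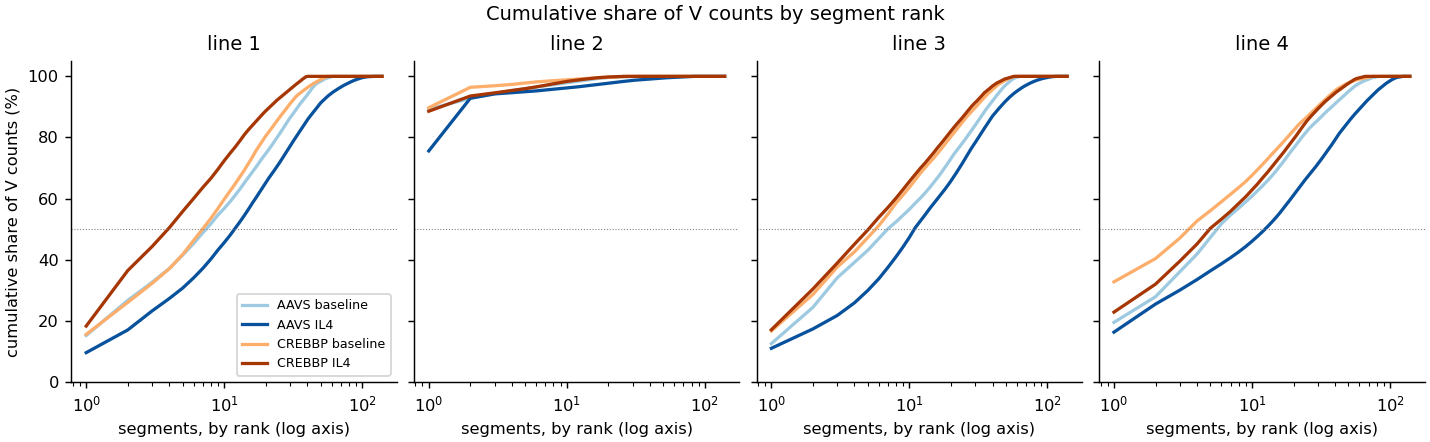
Cumulative share of V counts in percent against segment rank on a log axis, in 1 panel per cell line with 1 curve per group; the dotted line marks 50%. In lines 1, 3 and 4 the AAVS IL4 curve rises most slowly, and in line 2 all 4 curves start at 75.6% or more.

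Among heavy-chain segments of AAVS IL4, IGHV1-69D (ENSG00000280411, chr14:106762092-106762588) led in lines 1 and 3, with 123 and 184 CPM, and was at 0.56 CPM in line 2 and 1.15 CPM in line 4. In AAVS baseline it was at 0.04, 0.02, 0.37 and 0.10 CPM in lines 1 to 4. IGHV3-33 (55.2 and 118 CPM in lines 1 and 3), IGHV3-30 (51.7 and 109 CPM), IGHV4-59 (48.9 and 110 CPM) and IGHV5-51 (36.0 and 120 CPM) followed, and all were under 1 CPM in lines 2 and 4. Of heavy-chain counts, the IGHV1 family held 37.6% in line 1 and 30.9% in line 3, IGHV3 held 31.3% and 36.2%, and IGHV4 held 19.3% and 19.96%. IGHV3, the family with the most members (19), also led in line 4, with 38.1%.

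Among kappa segments IGKV1-33 (ENSG00000242076, chr2:89268001-89268506) led in line 1 with 103 CPM and was at 93.7 CPM in line 3, 0.59 CPM in line 2 and 0.71 CPM in line 4. IGKV4-1 (ENSG00000211598, chr2:88885397-88886153), the only member of its family, led in line 3 with 127 CPM and was at 67.5, 0.85 and 5.99 CPM in lines 1, 2 and 4. Outside AAVS IL4, IGKV4-1 ranged up to 2.94 CPM. IGKV3-11 was at 56.7 and 99.7 CPM in lines 1 and 3, and IGKV3-20 at 38.7 and 59.4 CPM. The IGKV1 family held 52.0% and 44.1% of kappa counts.

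Among lambda segments IGLV1-40 (ENSG00000211653, chr22:22409766-22410282) stood apart. It was at 158, 225 and 317 CPM in AAVS IL4 of lines 1, 2 and 3 and at 0.50 CPM in line 4, against at most 0.25 CPM in each of the other 12 libraries. It held 35.1% of lambda counts in line 1 (Wilson interval 34.2% to 36.0%), 38.7% in line 3 (37.9% to 39.4%) and 80.3% in line 2 (79.5% to 81.1%). The next lambda segment in lines 1 and 3 was IGLV2-14, with 11.1% and 10.98%. In line 2 few segments besides IGLV1-40 were high. Without IGLV1-40 and IGLV2-23 its V counts came to 21.3 CPM, against 10.7, 7.74 and 6.83 CPM in AAVS baseline, CREBBP baseline and CREBBP IL4, although 84 segments had at least 1 count. IGLV2-23 in this library was at 51.3 CPM, below the 53.0 to 89.1 CPM of the 3 other line 2 libraries, and was also present in AAVS IL4 of lines 1 and 3, at 19.4 and 26.3 CPM.

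**Figure D4:**
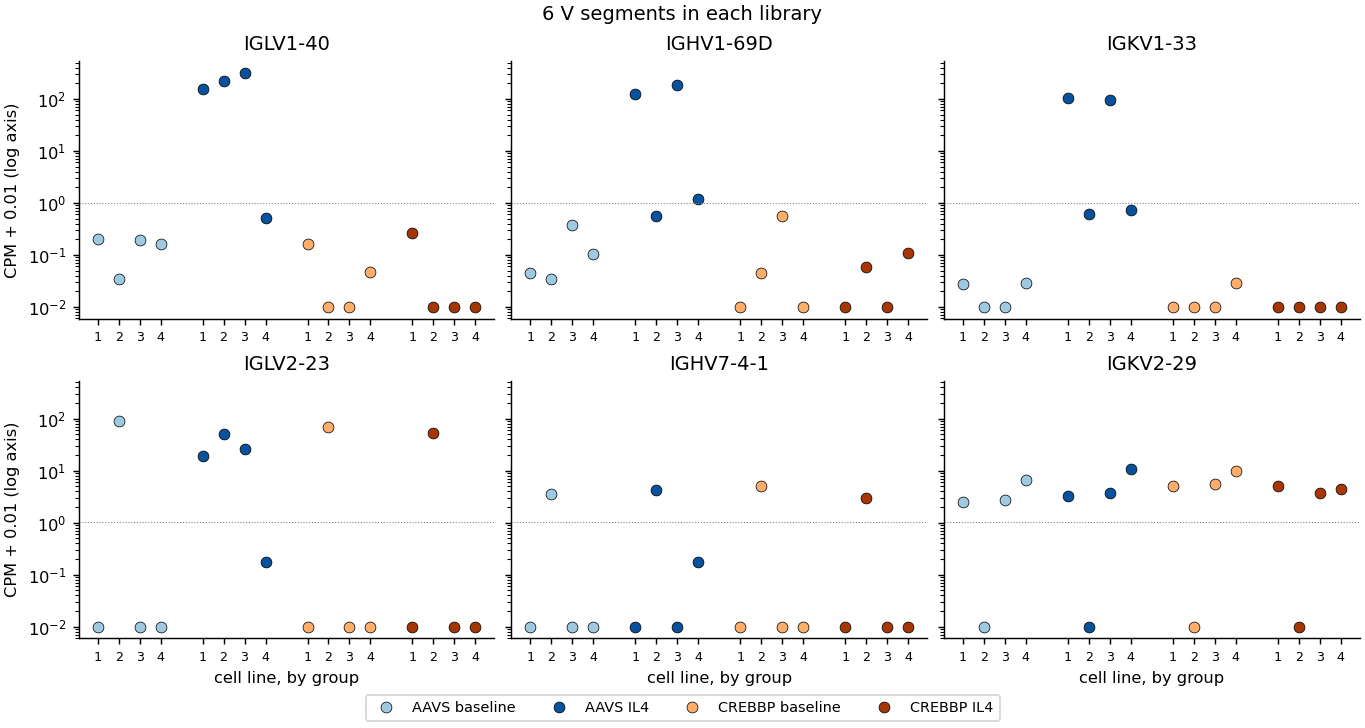
Level of 6 V segments in each library, as CPM + 0.01 on a log axis, by group and cell line, with a dotted line at 1 CPM. IGLV1-40 is high in AAVS IL4 of lines 1, 2 and 3, IGHV1-69D and IGKV1-33 in AAVS IL4 of lines 1 and 3, IGLV2-23 and IGHV7-4-1 in every line 2 library, and IGKV2-29 stays between 2.51 and 10.6 CPM in lines 1, 3 and 4.

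IGLC7, a lambda constant gene, was at 178, 276 and 260 CPM in AAVS IL4 of lines 1, 2 and 3, at 0.063 CPM in line 4 and at 0.062 CPM or less in the other 12 libraries. IGHM, the mu constant gene of IgM, was at 951, 711, 1711 and 138 CPM in AAVS IL4 of lines 1 to 4, and at 0.07 CPM or less in the other 12 libraries. IGHD, the delta constant gene, was at 58.97, 15.9, 126 and 6.98 CPM and held 0 counts elsewhere. For IGHM and IGHD, as for IGLV1-40, AAVS IL4 libraries did not overlap with the rest. IGHE, the epsilon constant gene, was at 24.3, 4.80, 43.8 and 103 CPM in AAVS IL4 and thus highest in line 4, the line with the fewest V counts in that group.

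The order of segment levels was compared between libraries. Across the 139 segments, which share library and depth and are not independent replicates, Spearman's rho was 0.97 between AAVS IL4 of lines 1 and 3. It was -0.13 to 0.07 between AAVS IL4 and the other libraries of line 1 and -0.13 to -0.10 in line 3. These low values rest in part on how segments entered, since 31 of the 139 held 0 counts in all 12 libraries outside AAVS IL4. The AAVS IL4 library of line 4 gave 0.46 to 0.47 with the other libraries of its line, 0.50 with AAVS IL4 of line 1 and 0.47 with that of line 3. Outside AAVS IL4, the 36 pairs of libraries of lines 1, 3 and 4 had a median rho of 0.76 (0.58 to 0.82). For the 97 segments at 1 CPM in both AAVS IL4 libraries, the median log2 ratio of line 3 to line 1 was 0.65, and 84 of them lay within a log2 difference of 1 of this median. The extremes were IGKV2-24 at -0.96 and IGKV1D-12 at 3.11.

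**Figure D5:**
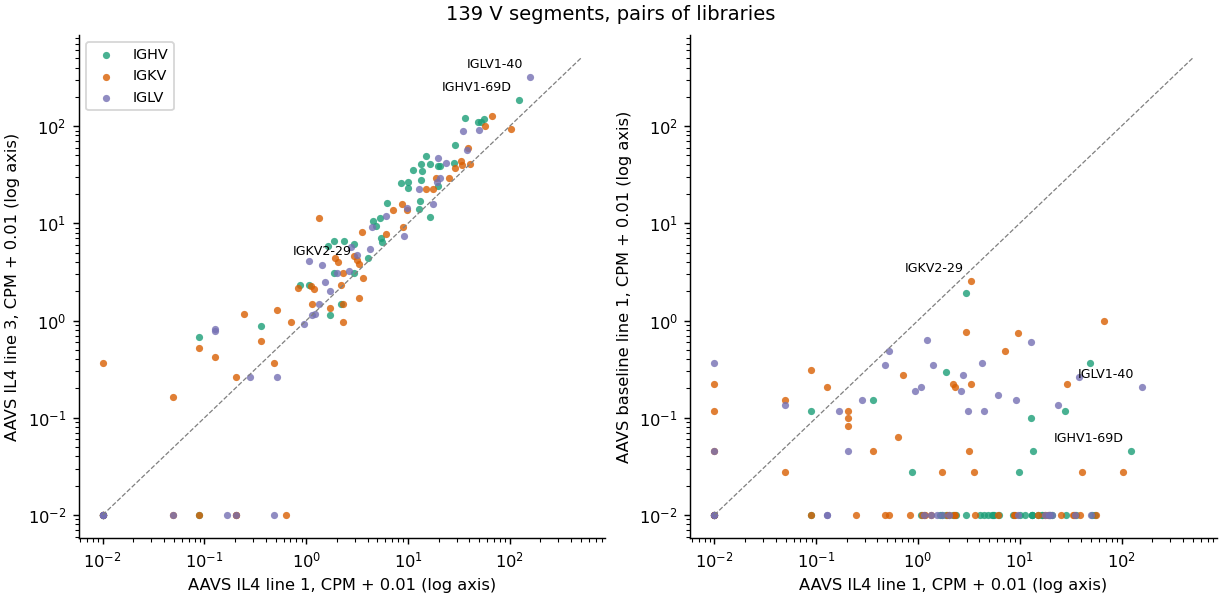
Level of the 139 V segments, as CPM + 0.01 on log axes, in AAVS IL4 of line 1 against AAVS IL4 of line 3 (left) and against AAVS baseline of line 1 (right), with the line of equality dashed and colours for IGHV, IGKV and IGLV. Points follow the diagonal in the left panel (rho 0.97) and spread along the horizontal axis in the right panel (rho -0.12).

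The effect of IL4 was tested within lines, with edgeR's quasi-likelihood test over all genes that passed its filter on low counts and Benjamini-Hochberg adjusted p-values. In the AAVS pools 488 of 20310 genes were called at an adjusted p under 0.05 (2.4%), and 14 of the 45 V segments tested were called, all of them higher with IL4 and in 4 of 4 lines. The remaining 94 segments did not pass the filter, and 55 of them were at 1 CPM or more in AAVS IL4 of both line 1 and line 3. Of the 45 tested, 15 had no baseline library above the filter level of 0.23 CPM and passed through the IL4 libraries, and 12 of the 14 called segments are among these, so that they had to differ. In all, 22 of the 45 reached this level in every IL4 library but not in every baseline library, and so needed IL4 libraries to pass.

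The called segments were 7 IGHV, 5 IGKV and 2 IGLV. The smallest adjusted p was that of IGKV3-11 (adjusted p = 0.00188, edgeR), whose baseline libraries of lines 1 to 4 had 0, 0, 0.10 and 0 CPM, against 56.7, 0.85, 99.7 and 0.92 CPM after IL4. All 4 values with IL4 lay above the 4 at baseline. IGKV1-33 (adjusted p = 0.00591, edgeR) held 2 counts over the 4 baseline libraries and 4534 with IL4, a ratio of pooled CPM of 3536 with a counting interval of 978 to 29205. IGHV3-30 (adjusted p = 0.0106), IGHV3-33 (adjusted p = 0.0109) and IGLV2-14 (adjusted p = 0.0110, all edgeR) held 0 counts at baseline in all lines. Against a floor of 3 counts over the 4 libraries, their pooled CPM was at least 1843-fold, 1955-fold and 1626-fold higher with IL4. These 5 segments are all among those that passed the filter through the IL4 libraries alone, and their p-values are no support. In lines 2 and 4 IGHV3-30 reached 0.85 and 0.98 CPM, IGHV3-33 0.35 and 0.48 CPM, and IGLV2-14 0.65 and 0.98 CPM.

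Some leading segments did not pass this test. IGLV1-40 had a fitted log2 change of 9.37 ± 1.76 (SE; adjusted p = 0.0520, edgeR), higher in 4 of 4 lines. IGKV4-1 had a fitted log2 change of 5.06 ± 1.06 (SE; adjusted p = 0.0715, edgeR), from 0.98, 0.02, 0.90 and 1.95 CPM to 67.5, 0.85, 127 and 5.99 CPM in lines 1 to 4. The pseudogenes IGKV2-29 and IGHV5-78 had fitted log2 changes of 0.41 ± 0.38 (adjusted p = 0.595) and -0.05 ± 0.37 (adjusted p = 0.954, both edgeR). With line 1 left out 4 segments were called, with line 2 left out 32, and with lines 2 and 4 alone 0.

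In the CREBBP pools IL4 had no called effect on any gene (0 of 18282, 0%) and thus on none of the 21 V segments tested. By edgeR 0 of these 21 had an unadjusted p under 0.05, and DESeq2 called 0 of them. V counts of lines 1 to 4 were 32.5, 75.5, 32.8 and 30.1 CPM in CREBBP baseline and 28.4, 59.9, 21.4 and 19.7 CPM in CREBBP IL4, lower with IL4 in 4 of 4 lines, while the groups overlapped.

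CREBBP and AAVS pools were then compared with each other. At baseline edgeR called 0 of 18936 genes (0%) and 0 of 28 V segments, 2 of which had an unadjusted p under 0.05, and DESeq2 called 0 segments. IGKV2-29 had a fitted log2 difference of 0.96 ± 0.36 (SE; adjusted p = 0.339, edgeR), with 3 of 4 lines higher in CREBBP pools. With IL4, 859 of 19581 genes were called (4.39%), among them 16 of the 40 V segments tested, all lower in CREBBP pools and in 4 of 4 lines. Of the 40, 14 had no CREBBP IL4 library above the filter level of 0.24 CPM, and 12 of the 16 called are among these, so that they had to differ. In all, 19 of the 40 reached this level in every AAVS IL4 library but not in every CREBBP IL4 library, and so needed AAVS IL4 libraries to pass. These comparisons share the AAVS IL4 libraries with the IL4 comparison in AAVS pools, and 10 segments were called in both.

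With IL4, IGLV2-14 had the smallest adjusted p (0.00135, edgeR), with 50.2, 0.65, 90.2 and 0.98 CPM in AAVS pools and 1 count in all CREBBP pools together. IGLV1-40 was at 0.25, 0, 0 and 0 CPM in CREBBP IL4 against 158, 225, 317 and 0.50 CPM in AAVS IL4 (adjusted p = 0.00584, edgeR), a ratio of pooled CPM of 2270. IGKV1-33 held 0 counts in CREBBP IL4 and was at least 2295-fold lower there (adjusted p = 0.00729, edgeR), and IGHV3-30 and IGKV3-11, also at 0, were at least 1794-fold and 1764-fold lower (adjusted p = 0.00754 for both, edgeR). IGLV2-14, IGKV1-33, IGHV3-30 and IGKV3-11 are among the segments that passed the filter through the AAVS IL4 libraries alone, and their p-values are no support. IGLV1-40 had only its line 1 library of CREBBP IL4 just above the filter level. It too needed the AAVS IL4 libraries to pass, and its p-value is no support either. IGKV4-1 was 31.5-fold lower by pooled CPM, from 219 counts in CREBBP IL4 (adjusted p = 0.0321, edgeR). With line 3 left out 2 segments were called, with line 1 left out 9, with line 2 left out 35, and with lines 2 and 4 alone 1.

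The difference in IL4 response between CREBBP and AAVS pools was called for 140 of 21932 genes (0.638%) and for 1 of 54 V segments tested. That segment, IGHV2-70 (ENSG00000274576, chr14:106770577-106771020), was at 0.09, 0, 0.16 and 0.11 CPM in AAVS baseline and 12.8, 0.06, 14.1 and 0.50 CPM in AAVS IL4. It was at 0.33, 0, 0.35 and 0.33 CPM in CREBBP baseline and 0.04, 0, 0.14 and 0.10 CPM in CREBBP IL4. The fitted log2 difference was -7.14 ± 1.21 (SE; adjusted p = 0.0353, edgeR), and the response was lower in CREBBP pools in 4 of 4 lines. In line 2 this direction rests on 2 counts in AAVS IL4, against 0 in every other library of that line. In CREBBP pools of lines 1 to 4 it held only 13, 0, 16 and 18 counts at baseline and 2, 0, 6 and 6 with IL4. IGHV2-70 passed the filter through AAVS IL4 and CREBBP baseline libraries alone, and its p-value is no support. With line 1 or line 3 left out 0 segments were called, with line 2 left out 3 and with line 4 left out 10. IGHV2-70 is 98.9% identical to IGHV2-70D, and 0 of its 208 windows of 151 bases occur there.

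How counts were divided among near-identical segments depends on the counting. Of the 139 segments, 42 have a partner of at least 98% identity in the annotated exons, and 6 share every window of 151 bases, the read length, with another V segment. IGHV1-69 and IGHV1-69D, whose exons are nearly identical, differ at 1 base in this stretch (in capitals), which is shown because the heavy-chain leader of lines 1 and 3 is told from its copy by so little.
IGHV1-69D, chr14:106762094-106762244 (- strand): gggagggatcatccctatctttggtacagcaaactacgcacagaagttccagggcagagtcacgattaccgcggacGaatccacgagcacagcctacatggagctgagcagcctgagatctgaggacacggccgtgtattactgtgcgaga
IGHV1-69, chr14:106714684-106714834 (- strand): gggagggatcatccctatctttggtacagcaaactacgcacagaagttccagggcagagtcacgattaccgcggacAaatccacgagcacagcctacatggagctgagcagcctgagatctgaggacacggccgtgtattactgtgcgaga
IGHV3-30 and IGHV3-33, 98.8% identical and both among the called segments, differ at 4 bases in the stretch below.
IGHV3-30, chr14:106335083-106335233 (- strand): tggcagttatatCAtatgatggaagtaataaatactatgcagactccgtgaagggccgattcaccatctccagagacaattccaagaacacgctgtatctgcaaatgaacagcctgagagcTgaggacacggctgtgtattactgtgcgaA
IGHV3-33, chr14:106359794-106359944 (- strand): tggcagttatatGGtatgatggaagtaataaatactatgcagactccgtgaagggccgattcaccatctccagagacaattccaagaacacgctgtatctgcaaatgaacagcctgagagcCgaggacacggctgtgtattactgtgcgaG
In AAVS IL4 of lines 1 and 3, IGHV1-69D held 3157 and 3609 counts and IGHV1-69 held 717 and 815. IGKV1-33 held 2638 and 1842 counts and its copy IGKV1D-33 held 223 and 308. All 232 windows of IGKV1-33 occur in IGKV1D-33 too, which has 290, so that no window of this length is particular to IGKV1-33. IGKV1D-39 held 1041 and 796 counts against 156 and 154 for IGKV1-39. When near-identical segments were merged, 85 and 89 segments remained at 1 CPM in AAVS IL4 of lines 1 and 3, and IGLV1-40 and its share were unchanged.

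Of 15 V promoter, recombination and mutation factors, 13 were tested for IL4 in AAVS pools and 1 was called (2.4% of all genes were), IRF4, a transcription factor of activated B cells and plasma cells. It rose from 0.61, 0.15, 1.25 and 0.44 CPM to 165, 49.3, 362 and 51.7 CPM in lines 1 to 4 (adjusted p = 0.000594, edgeR). The octamer coactivator gene POU2AF1 was at 268 to 340 CPM in AAVS IL4 and 319 to 518 CPM in AAVS baseline. RAG2 and DNTT, which act in V recombination, were at 0.073 CPM or less in every library, and RAG1 at 0.99 CPM or less. Between CREBBP and AAVS pools with IL4, 12 were tested and 2 called (4.39% of all genes were), IRF4 lower and UNG, a uracil glycosylase, higher in CREBBP pools, and IRF4 was called in the difference in response. Of 7 antigen receptor partners, CD79A and CD79B among them, 0 were called in any of the 5 comparisons, with 5 or 6 tested, and by edgeR 1 had an unadjusted p under 0.05, for IL4 in AAVS pools.

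Of 14 constant genes, IGHM, IGHD and IGHE were called higher with IL4 in AAVS pools among 13 tested (2.4% of all genes were called). IGHM, IGHD, IGLC1 and IGLC3 were called lower in CREBBP than AAVS pools with IL4 (4.39% of all genes were called). In the difference in response IGHM and IGHE were called (0.638% of all genes were), with 0 called in the other 2 comparisons. IGHM and IGHD, at or near 0 outside AAVS IL4, passed the filter through those libraries alone, and their calls are no support. In AAVS IL4 of lines 1 and 3 there were 0.331 and 0.288 IGKV counts per IGKC count and 0.0995 and 0.124 IGHV counts per heavy-chain constant count, against at most 0.0153 and 0.00271 in the other libraries of these lines.

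Markers of other cell types moved with the V segments, and their part in these results was not tested. Over all genes tested, 2.4% were called for IL4 in AAVS pools, 4.39% for CREBBP against AAVS pools with IL4 and 0.638% in the difference. Of 12 genes of B cells outside the germinal centre, IGHD among them, 9 were called higher with IL4 in AAVS pools. Of the same 12 genes, 9 were called lower in CREBBP than AAVS pools with IL4 and 4 lower in the difference. Their summed level was 1279, 230, 2382 and 506 CPM in AAVS IL4 of lines 1 to 4, 140 to 320 CPM in AAVS baseline and 60.4 to 204 CPM in CREBBP pools. CD44, a surface receptor of this list, was at 455, 67.5, 941 and 158 CPM in AAVS IL4 and at 0.47 CPM or less in the other 12 libraries. Of 15 T-cell genes, 9 were called higher with IL4 in AAVS pools, 11 lower in CREBBP than AAVS pools with IL4 and 0 in the difference. Their summed level was 147, 109, 292 and 49.7 CPM in AAVS IL4, with none at 0, and 11.5 to 49.1 CPM in the other libraries, with 4 to 10 of the 15 at 0. All 15 T-cell genes were tested in each of these comparisons, but only 5 and 6 in those without AAVS IL4 libraries. As with the V segments, genes of any list that passed the filter through AAVS IL4 alone had to differ, and their calls are no support. Of plasma cell genes 2 of 9 tested were called higher with IL4 in AAVS pools (PRDM1 and IRF4), 3 of 8 lower in CREBBP than AAVS pools with IL4 (PRDM1, XBP1 and IRF4) and 1 of 9 in the difference (IRF4), and the 9 listed summed to 426 to 2278 CPM in AAVS IL4 and 163 to 1084 CPM elsewhere. Of myeloid genes 1 of 6 tested was called in the first of these comparisons (LYZ), 2 of 5 in the next (LYZ and ITGAM) and 0 of 6 in the difference. The 13 myeloid genes listed summed to 15.0 to 31.6 CPM in AAVS IL4 and 5.53 to 29.3 CPM elsewhere. Of natural killer cell genes 1 of 4 tested was called higher with IL4 in AAVS pools (GNLY) and 2 of 4 lower in CREBBP than AAVS pools with IL4 (NKG7 and GNLY). In the difference 0 of 4 were called. The 6 natural killer cell genes listed summed to 4.63 to 22.1 CPM in AAVS IL4 and 0.533 to 2.27 CPM elsewhere. T-cell receptor V segments, the counterparts of the segments described here in T cells, summed over 123 symbols to 8.74, 3.12, 18.3 and 0.859 CPM in AAVS IL4 and to 0.286 CPM or less elsewhere, and 3 of them reached 1 CPM, in line 3. Of stromal and endothelial genes 2 were tested in each of these comparisons and 1 was called, COL1A1, lower in CREBBP than AAVS pools with IL4, and the 6 listed summed to 2.92 to 38.1 CPM in AAVS IL4 and 0.149 to 39.7 CPM elsewhere. B-lineage and germinal centre genes, 7 each, had 0 called in any comparison, with at most 2 of a list at an unadjusted p under 0.05 (edgeR), and the B-lineage sum was 2698 to 4799 CPM in AAVS IL4 and 2843 to 5395 CPM elsewhere.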

How the data were processed

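RNA was ribosomal RNA depleted and sequenced as 151 bp pairs in 16 libraries (50 ng of RNA each per the labels). The submitters' processing notes name Cutadapt 2.3, FastQC 0.11.8, MultiQC 1.7, STAR 2.7.8a, RSEM 1.3.3 and GRCh38. The authors deposited RSEM estimated counts per gene as whole numbers, not normalized. The study's methods state that counts of technical replicates were averaged per treatment, and that the cell line libraries were made by the same methods, without saying how many such replicates a line had. The strand setting in counting is not given in the sources used here.

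From these counts, CPM, shares, Wilson intervals at 95% and the tests were computed with Python 3.11.15, scipy 1.17.1, R 4.3.3, edgeR 4.0.16 and DESeq2 1.42.0. Depth was 19649735 to 61981976 counts per library. Groups were taken from the sample labels. Tests used filterByExpr, TMM factors and the edgeR quasi-likelihood test with the line as block, over all genes, with a threshold of 0.05 on the adjusted p. For the difference in response the block was the pool, that is the line and target together, over all 16 libraries. The line pairs the libraries as the labels name the same cell line. Deviations from group means correlated within lines with medians of 0.41, 0.68, 0.23 and 0.60 over 21932 genes. The lowest correlations between libraries of a line were 0.25, 0.53, -0.08 and 0.54 in lines 1 to 4. No 2 libraries of a group were copies, as their chi-square per degree of freedom was at least 98.7. In the comparisons between groups, p-values measure the spread between 4 lines with 1 library per group each. In the difference they measure the spread of IL4 responses between pools, with the 2 pools of a line treated as unrelated. The tests were also run on simulated counts with known fold changes and small differences between lines. Those counts do not cover segments at 0 in a whole group or with large differences between lines, as found here. A fold against 0 counts used a floor of 3 counts over the 4 libraries of a group.

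Positions, exon lengths and pseudogene annotation came from GENCODE release 44 (99.9% of gene IDs, and 330 of 330 V symbols, matched), and sequences from GRCh38. Named segments were taken mainly from those that led a locus in a library or were in the top 3 of a locus in an AAVS IL4 library. Others were among the 5 called with the smallest adjusted p and 1 direction in 4 lines, or reached 1 CPM outside AAVS IL4. Segments at least 98% identical to one of these could be named too. Not every segment that met these rules is named. CD44, IGKV2-24 and IGKV1D-12 were singled out after their values were seen. The members and lists were chosen with earlier results of these data known. The lists are constant genes, V promoter, recombination and mutation factors, antigen receptor partners, B-lineage, germinal centre, B cells outside the germinal centre, plasma cell, T-cell, myeloid, natural killer, and stromal and endothelial genes, and T-cell receptor V segments. Alternatives were other scaling, filters, no block, DESeq2, all libraries in 1 fit, lines left out, and other CPM levels, denominators and segment sets. The fit of lines 2 and 4 alone was chosen after seeing the data. The level of 1 listed gene is not reported here.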

Additional observations from a re-analysis of the deposited data

Results flagged for a closer look

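Line 2 stood apart from the other lines in 12 of the 14 groups of 4 libraries in which 1 library was far from the rest. In all, 91 groups of values were examined. Apart from the clonality values, they were of segments that reached 1 CPM in the group, and segments recur among them. The rate of about 1 in 20 by chance therefore does not apply to these groups. The top share of line 2 was 89.3% in AAVS baseline, 75.6% in AAVS IL4 and 88.6% in CREBBP IL4. Its summed V level was 75.5 CPM in CREBBP baseline. IGLV2-23 was far from the other lines in AAVS baseline (89.1 CPM), CREBBP baseline (67.7 CPM) and CREBBP IL4 (53.0 CPM). IGHV7-4-1 was so in all 4 groups (3.51 CPM in AAVS baseline, 4.18 CPM in AAVS IL4, 5.03 CPM in CREBBP baseline and 2.98 CPM in CREBBP IL4). IGHV5-78 was lowest in line 2 in AAVS IL4, with 0.56 CPM.

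In 2 groups another line stood apart. IGLV4-60 was at 1.75 CPM in line 1 of CREBBP IL4, and IGHV3-64 at 2.73 CPM in line 4 of AAVS baseline.

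IGHV2-70 had a fitted log2 difference of -7.14 in IL4 response between CREBBP and AAVS pools, which the test of the difference itself called. As it passed the filter through AAVS IL4 and CREBBP baseline libraries alone, this call is no support.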

How the results depend on the processing

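The called V segments numbered 14 for IL4 in AAVS pools, 16 for CREBBP against AAVS pools with IL4 and 1 for the difference in response. With no filter on low counts they were 78, 82 and 31, with at least 10 counts in every library 0, 0 and 0 (1, 2 and 1 segments tested), without the block 7, 4 and 0, and by the DESeq2 Wald test 32, 28 and 14. All 16 libraries in 1 fit gave 25 and 35. The fit that gave 25 had 1 term per pool, as had the one reported for the difference, and the fit that gave 35 had 1 term per line. Leaving out 1 line gave 4 to 32, 2 to 35 and 0 to 10, with 12, 2 and 0 without line 3 and 4, 9 and 0 without line 1. Without line 2 they were 32, 35 and 3, and without line 4 19, 19 and 10. Lines 2 and 4 alone gave 0, 1 and 0. Called segments were higher with IL4, or lower in CREBBP pools, under every alternative that called any. IL4 in CREBBP pools and CREBBP against AAVS pools at baseline gave 0 called segments under every alternative run. Leaving out the replicate block thus moved the counts of 3 comparisons.

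The median number of segments at 1 CPM was 4 in AAVS baseline, 6.5 in CREBBP baseline and 4.5 in CREBBP IL4. At 0.5 CPM it was 7.5, 13.5 and 9, and at 2 CPM it was 3 in CREBBP baseline and 2 in CREBBP IL4, as the level itself sets. Of 64 alternatives for the 8 clonality values, 59 moved the median of a group by less than the SD between its lines. For the top share that SD was 31.8 to 36.9 percentage points, as line 2 lay far above the other lines, so hardly any alternative could exceed it. The median top share of CREBBP baseline went from 24.7% to 14.3% without pseudogenes and still counts among the 59. For the number of segments in AAVS IL4 the SD is 52.4, and the median of 56 was 14 without line 1 or line 3 and 98 without line 2 or line 4.

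Depth limits what can be said of segments under 1 CPM, which rest on fewer than 20 to 62 counts. The counts do not show how many reads with mutations or across joins aligned to no V segment. The cause of the differences between alternatives was not tested.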
